A study of Mus musculus with 6 samples.

Results

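The BCL2 family decides whether a cell keeps the outer membrane of its mitochondria intact, and 10 of its genes were examined in CD8+ T cells treated with an LSD1 inhibitor. They were the anti-apoptotic genes Bcl2, Bcl2l1 and Mcl1, the effector genes Bax and Bak1, and the BH3-only genes Bcl2l11, Bid, Bad, Pmaip1 and Bbc3. They were picked by name for their known roles, with earlier results of these data known. The 10 genes are rows of a count table of 16281 genes. All 10 of them passed the filter on low counts, with 11698 genes in total. The count table held 3 samples treated with GSK2879552 (GSK) at 0.5 μM, an inhibitor of the histone demethylase LSD1, and 3 samples treated with vehicle (Veh). The solvent of the vehicle is not named in the sources used here. All 6 samples were CD8+ T cells from spleens of OT1 mice of the C57BL/6 strain with the genotype Tg(TcraTcrb)1100Mjb, so that control and treated cells alike carried a transgenic T-cell receptor that recognizes a peptide of ovalbumin. The cells had been activated for 48 h with antibodies against CD3 and CD28, each at 2 μg/ml, and IL-2 at 20 ng/ml. They were then expanded for 3 days, and GSK was present during activation and expansion. A transgenic receptor fixes the antigen specificity of these cells, and stimulation by antibody bypasses the antigen itself, so the cultures are a model of activated and not of resting T cells.

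In healthy cells, BCL2, BCL-XL (the product of Bcl2l1) and MCL1 hold the effectors BAX and BAK in check. BH3-only proteins such as BIM (Bcl2l11), BID, BAD, NOXA (Pmaip1) and PUMA (Bbc3) respond to cytokine loss, DNA damage or death receptor signals, and bind the anti-apoptotic proteins or activate the effectors directly. In activated T cells, BIM is known for its part in the death of cells that lose their cytokine supply, and much of the regulation of the family takes place at the level of the proteins, which was not measured.

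The counts of the samples summed to between 18288447 and 19846720, and every pair of replicates differed by more than counting noise alone would give (chi-square over its degrees of freedom from 3.95 to 9.02, the highest between GSK replicates 2 and 3). GSK replicate 2 was the GSK sample closest to the Veh samples in 64.6% of 1941 genes that were higher and 60.3% of 1819 genes that were lower in GSK. The CD8 T-cell markers Cd8a, Cd8b1, Cd3d, Cd3e and Cd3g summed to 1937 to 2036 CPM (counts scaled to a common library size with TMM factors) in Veh and to 1752 to 1869 CPM in GSK, with Cd3d, Cd3e and Cd3g lower in GSK (edgeR, adjusted p under 0.05). Cd8a and Cd8b1 did not pass (edgeR adjusted p = 0.20 and 0.072). The markers of CD4 T cells summed to 43.9 to 53.2 CPM in Veh and 40.7 to 45.9 CPM in GSK, with 1 of 4 genes higher. Zbtb7b gave most of this sum, with means of 42.1 CPM in Veh and 37.6 CPM in GSK. Cd4 itself had means of 1.19 and 0.97 CPM, and Cd40lg, the gene that was higher, of 0.45 and 1.29 CPM. The markers of B cells (5 genes), myeloid cells (5 genes), NK cells (4 genes) and red blood cells (5 genes) reached at most 7.94 CPM in any sample. None of their genes that could be tested passed the test. The part of these markers in the results was not tested. Kdm1a, the gene of LSD1, was measured at 90.2, 89.1 and 99.1 CPM in Veh and 86.4, 84.0 and 90.9 CPM in GSK, with overlapping ranges (edgeR, adjusted p = 0.22). GSK acts on the protein, so the transcript does not check the labels.

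Promoter windows of 3 members are shown first, those of Bcl2l11 and Bbc3 because they hold a motif of the FOXO factors described further on, and that of Bax for its E-boxes. They run from 250 bases before to 50 bases after a RefSeq start site of the GRCm38.p6 assembly, 5′ to 3′ on the strand of the gene. Windows were found for 9 of the 10 members, 15 windows in all. Capitals mark GTAAACA or its reverse complement TGTTTAC, the core bound by FOXO factors, in the windows of Bcl2l11 (chr2:128125788-128126087, plus strand, 1 of 2 start sites) and of Bbc3 (chr7:16310011-16310310, plus strand, 1 of 3 start sites). In the window of Bax (chr7:45466849-45467148, minus strand) they mark CACGTG, the E-box bound by MYC and related factors.
Bcl2l11: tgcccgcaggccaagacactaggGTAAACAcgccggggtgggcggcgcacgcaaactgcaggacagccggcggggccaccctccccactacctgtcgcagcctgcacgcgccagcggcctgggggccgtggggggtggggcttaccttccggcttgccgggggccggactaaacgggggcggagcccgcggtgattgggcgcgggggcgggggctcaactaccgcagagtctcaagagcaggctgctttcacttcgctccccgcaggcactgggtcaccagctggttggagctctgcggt
Bbc3: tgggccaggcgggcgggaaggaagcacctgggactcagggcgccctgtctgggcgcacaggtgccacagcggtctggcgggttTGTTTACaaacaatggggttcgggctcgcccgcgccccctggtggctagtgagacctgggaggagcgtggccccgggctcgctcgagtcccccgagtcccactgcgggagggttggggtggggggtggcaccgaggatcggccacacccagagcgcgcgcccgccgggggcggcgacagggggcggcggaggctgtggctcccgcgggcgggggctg
Bax: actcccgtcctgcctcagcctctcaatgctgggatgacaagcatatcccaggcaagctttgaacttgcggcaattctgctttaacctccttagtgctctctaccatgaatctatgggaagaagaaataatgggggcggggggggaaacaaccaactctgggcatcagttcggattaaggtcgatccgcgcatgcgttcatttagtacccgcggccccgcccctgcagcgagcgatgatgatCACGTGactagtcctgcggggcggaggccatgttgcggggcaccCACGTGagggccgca
The FOXO core lay 227 bases before that start of Bcl2l11 and 167 bases before that start of Bbc3. It occurred in 2 of the 15 windows of the members and in 3.65% of 32851 windows of all genes. The window at the other start of Bcl2l11 (chr2:128127325-128127624) held none of the motifs searched. The Bcl2l11 window shown lies within the region of Acoxl, a gene described further on. The E-boxes of Bax lay 9 bases before and 35 bases after the start. An E-box occurred in 2 of the 15 windows, the other at another start of Bbc3, and in 7.15% of all windows. The STAT core TTCNNNGAA was in 0 of the 15 windows and in 8.30% of all windows. Each motif was searched on both strands, and a match describes letters and not a bound site. The motif search was not among the planned steps, and the windows shown were picked for their matches. A p53 motif was not searched. Whether any match bears on the changes of these genes was not tested.

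With GSK, 4 of the 10 genes were higher and 2 were lower than with Veh (edgeR, adjusted p under 0.05). Of all genes tested, 32.1% passed this test, 16.6% higher and 15.5% lower. Bcl2l1, Bax, Bid and Bak1 were higher, Bcl2l11 and Bbc3 were lower, and Bcl2, Mcl1, Bad and Pmaip1 did not pass the test. None of the 10 passed a fold change of 1.5 as well, which 6.32% of all genes tested did by edgeR (2.22% higher and 4.09% lower). An unadjusted p under 0.05 was found for 7 of the 10 and for 43.0% of all genes tested. DESeq2 gave the same 4 genes higher and 2 lower, against 26.9% of the genes it tested (14.1% higher and 12.8% lower). It likewise placed 0 of the 10 past the fold change, against 5.55% (2.01% higher and 3.54% lower). For the same 6 genes the values of the groups did not overlap, which was so for 46.7% of all genes tested, with GSK above Veh in 23.7% and below it in 23.0%. The median log2 fold change of the 10 genes was 0.14, and that of all genes tested was -0.0039. In bulk RNA, a change in the share of cells that express a gene and a change of its RNA per cell cannot be told apart.

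**Figure D1:**
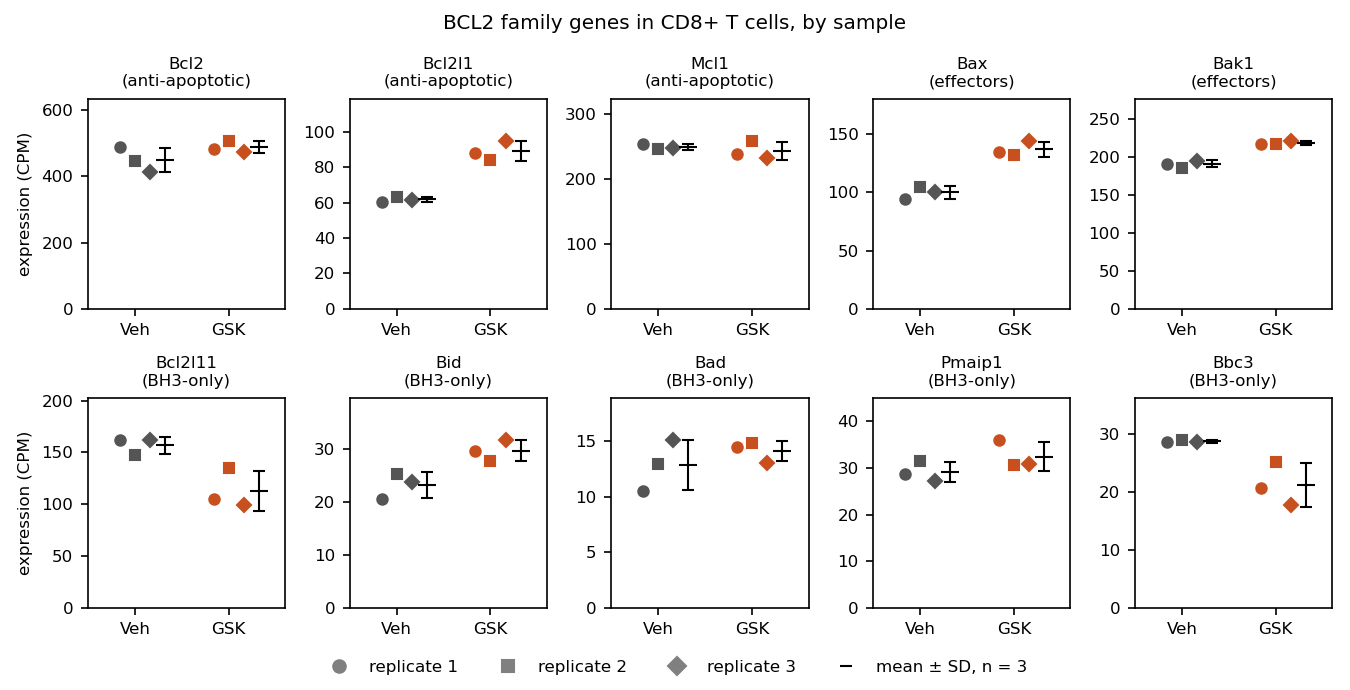
Expression in CPM (vertical axes, each starting at 0) of the 10 BCL2 family genes in the 3 Veh samples (grey) and the 3 GSK samples (orange), with the marker shape giving the replicate and the bar the mean and SD. The GSK samples lie above all Veh samples for Bcl2l1, Bax, Bak1 and Bid, below them for Bcl2l11 and Bbc3, and overlap with them for the other 4 genes.

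Among the anti-apoptotic genes, Bcl2l1 alone passed the test. Bcl2l1 (chr2:152758732-152833803, minus strand), which encodes BCL-XL, was measured at 60.6, 63.2 and 61.7 CPM in Veh and 88.3, 83.9 and 95.0 CPM in GSK. All GSK samples were above all Veh samples, and the log2 fold change was 0.53 ± 0.056 (SE, n = 3 per group, edgeR adjusted p = 3.3e-05), a 1.44-fold rise. It was the largest change among the 10 genes, larger in size than the change of 88.3% of all genes tested. Leaving out any one sample gave log2 fold changes of 0.48 to 0.57.

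Bcl2 (chr1:106538176-106714290, minus strand), the founding member of the family, was measured at 487, 447 and 415 CPM in Veh and 483, 507 and 474 CPM in GSK. The ranges overlapped, since Veh replicate 1 lay above GSK replicates 1 and 3, and the log2 fold change of 0.12 ± 0.054 (SE) did not pass (edgeR adjusted p = 0.11, unadjusted p = 0.049). Without Veh replicate 1 the log2 fold change was 0.18 with an adjusted p of 0.023 (edgeR). Mcl1 (chr3:95656944-95663179, plus strand), whose protein is short-lived, was measured at 254, 245 and 247 CPM in Veh and 239, 258 and 232 CPM in GSK. GSK replicate 2 was the highest and GSK replicate 3 the lowest of the 6 samples. The log2 fold change of Mcl1 was -0.034 with a 95% interval of -0.13 to 0.067 (edgeR adjusted p = 0.62), so that a difference of 1.5-fold lay outside the interval in either direction.

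Both effector genes were higher. Bax (chr7:45461695-45466903, minus strand), whose protein moves from the cytosol to mitochondria to form pores, was measured at 94.3, 105 and 101 CPM in Veh and 135, 132 and 144 CPM in GSK. The lowest GSK sample was above the highest Veh sample by more than the range within either group, and the log2 fold change was 0.45 ± 0.053 (SE, edgeR adjusted p = 6.8e-05). Of the 31-base stretches of Bax transcripts, 11.1% also occur in transcripts of other genes, most of them in Gm45808, which has no row in the table, so part of its reads may be shared. Bak1 (chr17:27019812-27028627, minus strand), whose protein resides at the mitochondrial membrane, was measured at 191, 186 and 195 CPM in Veh and 217, 217 and 221 CPM in GSK. Its samples were tightly grouped and did not overlap. The log2 fold change of Bak1 was smaller, 0.19 ± 0.041 (SE, edgeR adjusted p = 0.0034).

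The 5 BH3-only genes did not move together, with 1 higher, 2 lower and 2 that did not pass the test. Bcl2l11 (chr2:128126038-128162547, plus strand), which encodes BIM, was measured at 162, 148 and 162 CPM in Veh and 105, 135 and 99.6 CPM in GSK. All GSK samples were below all Veh samples, but GSK replicate 2 lay closer to the lowest Veh sample than to the other GSK samples. The log2 fold change was -0.47 ± 0.12 (SE, edgeR adjusted p = 0.026), with a 95% interval of -0.76 to -0.18. This call was the least stable of the 6. The adjusted p (edgeR) was 0.094 without Veh replicate 1, 0.073 without Veh replicate 3, 0.060 without GSK replicate 1 and 0.052 without GSK replicate 3, and 0.079 with no filter on low counts. Without GSK replicate 2 the log2 fold change was -0.62, past 1.5-fold, with an adjusted p of 1.3e-06, and DESeq2 on all samples gave an adjusted p of 2.3e-06. The region of Acoxl, a peroxisomal acyl-CoA oxidase-like gene, overlaps the start of Bcl2l11 at chr2:128126038-128126252. Acoxl was also lower, at 7.29, 5.85 and 6.99 CPM in Veh and 3.57, 4.30 and 4.28 CPM in GSK (log2 fold change -0.73 ± 0.16, SE, edgeR adjusted p = 0.0048), far below the level of Bcl2l11.

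Bbc3 (chr7:16308398-16318334, plus strand), which encodes PUMA, was measured at 28.6, 29.0 and 28.6 CPM in Veh and 20.7, 25.3 and 17.8 CPM in GSK. The Veh samples were nearly equal, the GSK samples were all lower and spread more widely, and GSK replicate 2 was again the closest to Veh. The log2 fold change was -0.44 ± 0.11 (SE, edgeR adjusted p = 0.0088), and the adjusted p stayed between 0.00017 and 0.042 when any one sample was left out. Bid (chr6:120893119-120917062, minus strand), whose protein is cut by caspase-8 and links death receptors to mitochondria, was measured at 20.6, 25.3 and 23.9 CPM in Veh and 29.6, 27.8 and 31.8 CPM in GSK. All GSK samples were above all Veh samples, with a log2 fold change of 0.35 ± 0.088 (SE, edgeR adjusted p = 0.0086). Bcl2l13, a family gene that lies 277 bases from Bid, had a log2 fold change of -0.040 (edgeR adjusted p = 0.61).

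Bad (chr19:6941861-6951905, plus strand), whose protein is kept inactive by phosphorylation, was measured at 10.6, 12.9 and 15.1 CPM in Veh and 14.5, 14.8 and 13.0 CPM in GSK. Veh held both the lowest and the highest of the 6 samples, and the 95% interval of the log2 fold change ran from -0.14 to 0.40 (edgeR adjusted p = 0.45). The region of Bad overlaps that of Gpr137, a membrane protein gene whose log2 fold change was -0.39 (edgeR adjusted p = 0.037). Pmaip1 (chromosome 18), which encodes NOXA, a partner of MCL1, was measured at 28.8, 31.5 and 27.1 CPM in Veh and 36.0, 30.6 and 30.8 CPM in GSK. Veh replicate 2 lay above GSK replicates 2 and 3, and the interval was -0.027 to 0.34 (edgeR adjusted p = 0.18).

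**Figure D2:**
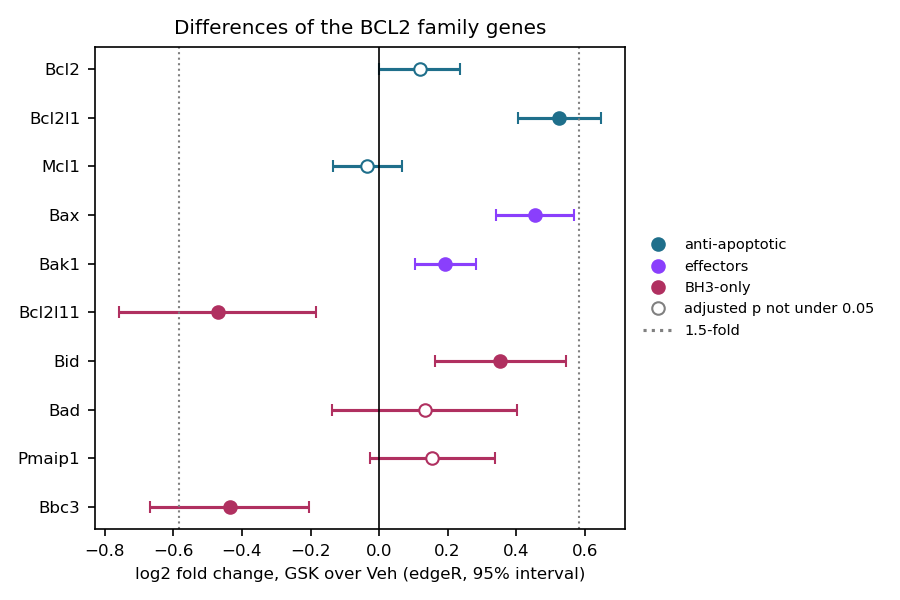
Log2 fold change of GSK over Veh (horizontal axis) of the 10 genes with its 95% interval from edgeR (n = 3 per group), coloured by role, with open circles for genes that did not pass an adjusted p of 0.05 and dotted lines at 1.5-fold. Bcl2l1 lies farthest to the right at 0.53 and Bcl2l11 farthest to the left at -0.47, and every point lies inside the dotted lines.

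Levels of different genes were compared as CPM per kb of the gene's exons (union of GENCODE M21 exons), without a test. In Veh, Bak1 was the highest at 79.3 ± 1.88 CPM per kb (SD, n = 3), followed by Mcl1 at 72.7 ± 1.32, Bax at 63.4 ± 3.40 and Bcl2 at 49.1 ± 3.98. The next were Bcl2l11 at 19.6 ± 1.03, Bbc3 at 13.5 ± 0.093, Bcl2l1 at 13.5 ± 0.28 and Pmaip1 at 10.7 ± 0.81, and the lowest were Bid at 6.55 ± 0.69 and Bad at 5.03 ± 0.89. This order depended on the length used. With the length of the longest transcript, a choice made after seeing the data, Bax led in Veh at 90.9 ± 4.87 CPM per kb, above Bak1 at 79.9 ± 1.89 and Mcl1 at 72.7 ± 1.32. With exon lengths, neighbours in the order had separate ranges except Bbc3 and Bcl2l1, and Bid and Bad. In GSK, Bak1 at 90.7 ± 1.09 and Bax at 87.0 ± 4.12 CPM per kb were the highest and overlapped, and Mcl1 was at 71.1 ± 4.02. Bax was thus above Mcl1 in GSK and below it in Veh with exon lengths, but above it in both groups with the longest transcript. Bcl2l1 at 19.4 ± 1.22 CPM per kb stood above Bcl2l11 at 14.1 ± 2.40, the reverse of Veh, and these 2 did not overlap in either group. Bcl2 (53.3 ± 1.89) kept its place, and Pmaip1 (11.9 ± 1.12), Bbc3 (8.37 to 11.9 over the samples), Bid (8.38 ± 0.55) and Bad (5.51 ± 0.37) were the 4 lowest. The ranges of Bcl2l11 and Pmaip1, of Pmaip1 and Bbc3, and of Bbc3 and Bid overlapped in GSK. Of the summed level of the 10 genes per kb of exons, the mean share of Bcl2l11 was 5.87% in Veh and 3.80% in GSK. That of Bbc3 was 4.06% and 2.69%, that of Bcl2l1 4.04% and 5.23%, and that of Bax 19.0% and 23.4%. The summed level was itself higher in GSK, at 367 to 377 CPM per kb against 332 to 334 in Veh. A share can thus fall while its gene changes little. That of Mcl1 was 21.8% in Veh and 19.1% in GSK, at a log2 fold change of -0.034.

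Ratios within a sample do not depend on how the samples are scaled to each other. The log2 ratio of the level per kb was taken for each of the 7 pro-apoptotic genes over each of the 3 anti-apoptotic genes, 21 ratios in all, as a description without a test. All GSK samples were below all Veh samples in 9 ratios and above them in 4, and the groups overlapped in 8. Ratios of other gene pairs were not counted, so no share over all pairs stands beside these numbers. For single genes, the groups did not overlap in 46.7% of all genes tested. The ratios reuse the same genes, so their counts are not independent of each other or of the single-gene results. Over Bcl2l1, 5 of 7 ratios were lower and 0 were higher. Over Bcl2, 2 were lower and 1 was higher, and over Mcl1, 2 were lower and 3 were higher, so the direction depended on the anti-apoptotic gene in the ratio.

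The log2 ratio of Bcl2l11 to Bcl2l1 was 0.61, 0.42 and 0.58 in Veh and -0.56, -0.12 and -0.74 in GSK. The BIM transcript was thus above the BCL-XL transcript per kb in every Veh sample and below it in every GSK sample, a difference of -1.01 between the means. It was the largest difference in size among the 21 ratios. It pairs the most lowered with the most raised member, so it restates their single changes. With the length of the longest transcript in place of all exons, the means were 0.37 in Veh and -0.64 in GSK. Another length shifts a ratio equally in all samples, so it moves the ratio against 0 but not the difference between the groups. Bbc3 over Bcl2l1 had a mean log2 ratio of 0.0054 in Veh and -0.97 in GSK with exon lengths, and of -0.60 and -1.58 with the longest transcript. Bax and Bcl2l1 rose alongside each other, and their log2 ratio was 2.23 ± 0.049 in Veh and 2.16 ± 0.027 in GSK (SD), with overlapping ranges. Over Mcl1, in contrast, the log2 ratio of Bax was -0.20 ± 0.10 in Veh and 0.29 ± 0.14 in GSK, with all GSK samples above all Veh samples. With the longest transcript the means were 0.32 and 0.81, so the change of sign held with exon lengths only. Over Bcl2, the log2 ratio of Bcl2l11 was -1.33 ± 0.14 in Veh and -1.93 ± 0.19 in GSK.

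**Figure D3:**
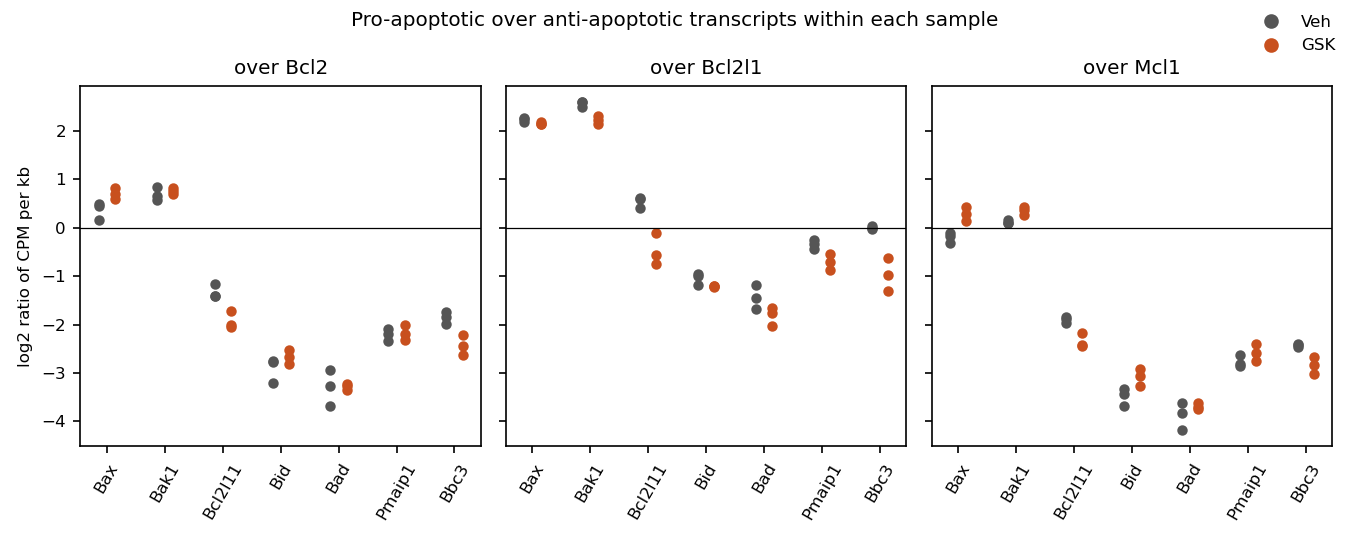
Log2 ratio of CPM per kb (vertical axis) of each pro-apoptotic gene over Bcl2, Bcl2l1 and Mcl1 in each of the 3 Veh samples (grey) and 3 GSK samples (orange), with a line at equal levels. Over Bcl2l1, Bcl2l11 lies above the line in all Veh samples and below it in all GSK samples, and over Mcl1, Bax lies below the line in all Veh samples and above it in all GSK samples with the exon lengths plotted, but above it in both groups with the longest transcript.

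Genes around the family were taken from 6 lists chosen by role, likewise with earlier results of these data known. The lists held 74 genes in all, of which 68 were tested, 13 were higher and 14 were lower (edgeR, adjusted p under 0.05). Their median log2 fold change was 0.013. These counts stand beside the 16.6% and 15.5% of all genes tested. Past 1.5-fold as well, 2.22% of all genes tested were higher and 4.09% were lower by edgeR. The median and the counts differed between the lists, as follows.

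Among the other genes of the BCL2 family, 0 of 11 tested were higher and 3 were lower, all 3 of them past 1.5-fold, with a median log2 fold change of -0.25. Bmf, a BH3-only gene whose protein is tied to the cytoskeleton, was measured at 8.05, 8.64 and 14.1 CPM in Veh and 4.30, 6.12 and 5.16 CPM in GSK. All GSK samples were lower, and Veh replicate 3 stood above the other Veh samples (log2 fold change -0.98 ± 0.22, SE, edgeR adjusted p = 0.0075). Bnip3 and Bnip3l, BH3-related genes known for mitophagy and for induction in hypoxia, were lower by log2 fold changes of -0.63 ± 0.053 and -0.85 ± 0.085 (SE, edgeR adjusted p = 4.9e-06 and 0.00018). Bcl2a1b and Bcl2a1d, copies of the anti-apoptotic A1 gene whose near-identical sequences leave the split of reads between them uncertain, had log2 fold changes of 0.25 and 0.19 and did not pass (edgeR adjusted p = 0.18 and 0.55). Bcl2a1a, Bcl2a1c, Bcl2l10 and Bok were too low to be tested, and Hrk has no row in the table.

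Downstream of mitochondria, 1 of 16 genes of the apoptosome, the caspases and their inhibitors was higher and 4 were lower, with a median of 0.029. Cycs, the cytochrome c released when pores form, was measured at 67.5, 79.98 and 68.2 CPM in Veh and 94.4, 82.8 and 92.3 CPM in GSK, with Veh replicate 2 just below the lowest GSK sample (log2 fold change 0.32 ± 0.072, SE, edgeR adjusted p = 0.0054). Casp6 and Casp2 had log2 fold changes of -0.41 and -0.18, and the caspase inhibitor Xiap and the ubiquitin ligase Birc2 of -0.15 and -0.29 (edgeR adjusted p from 0.0057 to 0.033). The calls of Casp2 and Xiap depended on single samples. Casp2 gave an adjusted p (edgeR) of 0.061 without Veh replicate 1 or Veh replicate 3 and 0.057 without GSK replicate 3. Xiap gave 0.15 and 0.074 without Veh replicate 1 and 3, and 0.11 and 0.074 without GSK replicate 1 and 3.

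In the death receptor pathway, 3 of 10 genes were higher and 2 were lower, with a median of 0.044. Fasl, a ligand by which cytotoxic T cells can kill, was measured at 67.6, 66.1 and 60.5 CPM in Veh and 82.9, 95.4 and 104 CPM in GSK (log2 fold change 0.54 ± 0.078, SE, edgeR adjusted p = 0.00047). Its receptor Fas was lower, at 22.1, 21.1 and 20.2 CPM in Veh and 17.0, 17.9 and 13.6 CPM in GSK (log2 fold change -0.39 ± 0.10, SE, edgeR adjusted p = 0.012). Neither gene overlapped between the groups, as was so for 46.7% of all genes tested. Tnfrsf10b, the receptor for TRAIL, and the adaptor Fadd were higher by 0.43 and 0.28 on the log2 scale, and Cflar, the inhibitor of caspase-8, had a log2 fold change of -0.16 (edgeR adjusted p = 0.0043, 0.034 and 0.039). The calls of Fadd and Cflar were not made by DESeq2 (adjusted p = 0.073 and 0.060). Leaving out single samples lost them too, with an adjusted p (edgeR) of up to 0.14 without Veh replicate 3 for Fadd, which was also lost without Veh replicate 1 and GSK replicates 1 and 3, and of up to 0.14 without Veh replicate 1 for Cflar, also lost without Veh replicate 2 and GSK replicates 1 and 3.

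Of 11 transcription factors known to act on the 10 genes, 1 was higher and 4 were lower, with a median of -0.12. Foxo3, a known activator of Bcl2l11 and Bbc3, was measured at 88.1, 86.3 and 84.6 CPM in Veh and 49.1, 49.8 and 43.3 CPM in GSK, well apart (log2 fold change -0.86 ± 0.060, SE, edgeR adjusted p = 1.2e-06). It was the only one of the 11 past 1.5-fold. Its relative Foxo1 did not pass, with a log2 fold change of -0.065 (edgeR adjusted p = 0.45). Ddit3, the stress factor CHOP, had a log2 fold change of -0.55, Nfkb1 of -0.30 and Stat5b, which acts downstream of IL-2, of -0.17 (edgeR adjusted p = 0.0019, 8.6e-05 and 0.018). Stat5b lost its call without Veh replicate 1 or 2 (adjusted p = 0.082 and 0.069). Myb was higher by 0.19 on the log2 scale (edgeR adjusted p = 0.042), but not by DESeq2 (adjusted p = 0.062) and not without Veh replicate 1 or 2 or GSK replicate 1 or 3 (edgeR adjusted p of 0.16, 0.10, 0.078 and 0.17). Without robust moderation its adjusted p (edgeR) was 0.0503. Trp53, the gene of p53, was not shown to differ, with a mean of 186 CPM in Veh and of 194 CPM in GSK (edgeR adjusted p = 0.37). Whether any of these factors acted on the 10 genes was not measured.

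Bax, Bbc3, Bid and Pmaip1 are among the known p53 targets and did not move together. Bax and Bid were higher, Bbc3 was lower and Pmaip1 did not pass (edgeR adjusted p = 0.18). Of 13 tested genes on a list of other p53 targets, 8 were higher and 2 were lower, with a median of 0.21. Aen, an apoptosis-enhancing nuclease, was measured at 39.4, 41.2 and 36.5 CPM in Veh and 61.5, 65.7 and 72.4 CPM in GSK (log2 fold change 0.77 ± 0.071, SE, edgeR adjusted p = 1.2e-05). Phlda3, an inhibitor of AKT, was higher by 0.66 on the log2 scale, and these 2 were the higher genes past 1.5-fold. Zmat3, Sesn2, Ccng1, Mdm2 and Cdkn1a were higher by 0.53, 0.42, 0.41, 0.21 and 0.21 on the log2 scale (edgeR adjusted p from 2.6e-05 to 0.014), and Tnfrsf10b, which stands on the death receptor list also, was the eighth. Without Veh replicate 1 the adjusted p (edgeR) was 0.060 for Mdm2 and 0.068 for Cdkn1a, and without GSK replicate 1 it was 0.085 for Cdkn1a. Btg2, an antiproliferative gene, and Fas were lower. Btg2 was measured at 91.7, 89.0 and 84.6 CPM in Veh and 51.7, 60.3 and 46.4 CPM in GSK (log2 fold change -0.74 ± 0.082, SE, edgeR adjusted p = 8.9e-05). Its groups did not overlap, as was so for 46.7% of all genes tested.

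Of 10 genes whose proteins control the stability or place of the family's proteins, 1 was higher and 0 were lower, with a median of 0.097 (edgeR). By the unadjusted p, 4 of the 10 were under 0.05, near the share of 43.0% over all genes tested. Vdac2, a mitochondrial channel that holds BAK, was higher by 0.18 on the log2 scale (edgeR adjusted p = 0.018), at 231, 245 and 228 CPM in Veh and 265, 249 and 283 CPM in GSK. Its groups lay just apart, and the adjusted p (edgeR) was 0.065, 0.078, 0.069 and 0.067 without Veh replicate 1, Veh replicate 3, GSK replicate 1 and GSK replicate 3. Huwe1 and Usp9x, enzymes that add ubiquitin to MCL1 and remove it, did not pass.

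**Figure D4:**
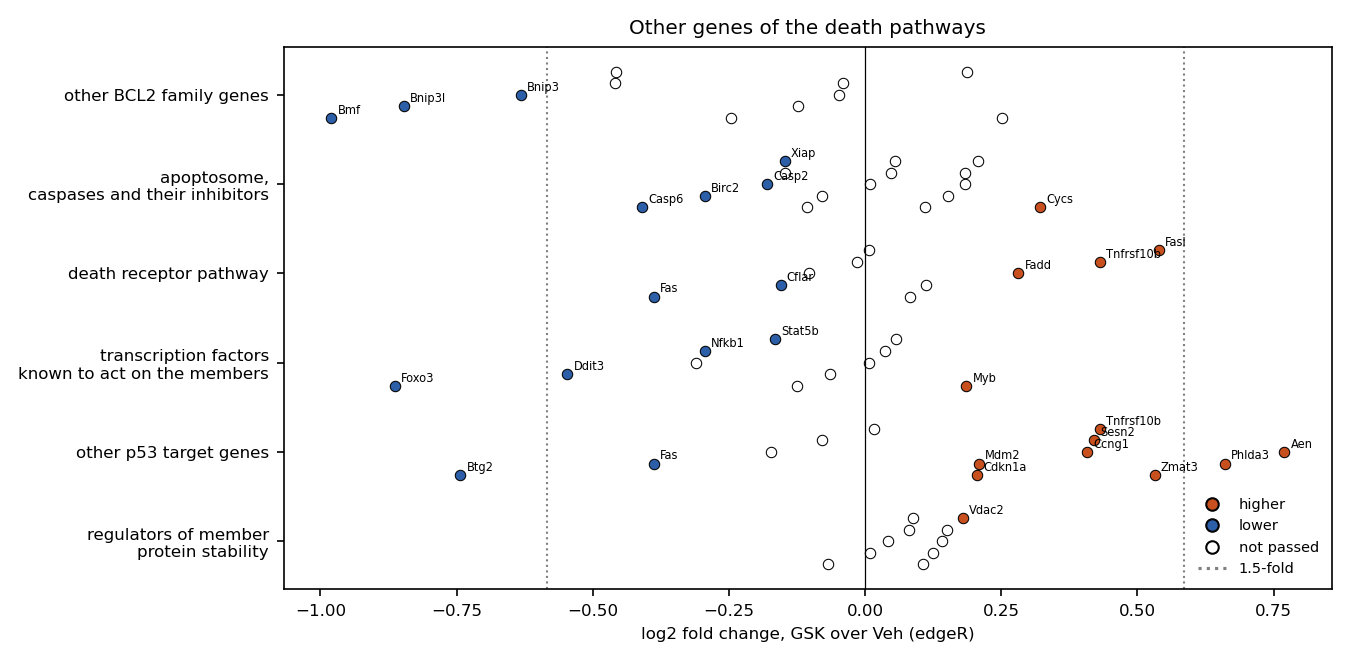
Log2 fold change of GSK over Veh (horizontal axis) of each tested gene of the 6 other lists (rows), with filled and named points for genes past an adjusted p of 0.05 by edgeR (orange higher, blue lower), open points for the others and dotted lines at 1.5-fold. Bmf (-0.98), Foxo3 (-0.86), Bnip3l (-0.85), Btg2 (-0.74) and Bnip3 (-0.63) lie left of the lines and Aen (0.77) and Phlda3 (0.66) right of them.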

How the data were processed

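RNA was measured in 3 GSK and 3 Veh samples, grouped by their labels. The cells came from 3 separate OT1 mice per the paper, whose figure legend gives 3 mice per group. It does not say whether a GSK and a Veh culture shared a mouse. The authors isolated polyadenylated RNA, built stranded libraries, mapped reads to GRCm38 with HISAT2 (version 2.1.0) and counted them per gene with HTSeq (version 0.11.2), versions per the submitters' processing notes. The deposited values are raw counts, not normalized. The annotation release and the strand setting of the counting are not given in the sources used here, so counts of overlapping genes are uncertain.

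The test was edgeR's robust quasi-likelihood fit (version 4.0.16, R version 4.3.3) on counts that passed filterByExpr, with TMM factors. Its p-values were adjusted over 11698 genes by Benjamini-Hochberg, with a threshold of 0.05 and, for calls by size, a fold change over 1.5. Standard errors were derived from the test statistic, and CPM use TMM-scaled totals. The steps were tested on simulated data. The alternatives for the gene tests were DESeq2 (version 1.42.0), RLE factors, 2 other filters, no robust moderation and a replicate block. The fold change tested against 1.5 and leaving out each sample were further alternatives. Plain totals were used for the ratios only, which do not depend on scaling, so that count could not change. A length from the longest transcript was added after seeing the data.

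The 10 genes and all lists were chosen with earlier results of these data known. Named were the 10 genes, every list gene with an adjusted p under 0.05, overlapping or adjacent genes, some cell type markers and Kdm1a. Other list genes were named by their list, and 2 genes of the lists are not reported here and were left out of the lists' counts. Positions are those of GRCm38 in RefSeq tables, matched by symbol or Entrez identifier, and lengths come from GENCODE M21, of the same build. Shared 31-base stretches were counted over GENCODE transcripts. Chromosome 18 windows and proteins were not used here.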

Additional observations from a re-analysis of the deposited data

How the results depend on the processing

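Among the 10 genes, the fold change tested against 1.5 left 0 higher. The other fits on all samples gave 4 higher, and leaving out a sample gave 4 to 5. Lower genes numbered 1 without a filter on low counts, 0 in the test against 1.5, and 1 to 2 when a sample was left out (1 without Veh replicate 1, Veh replicate 3, GSK replicate 1 or GSK replicate 3), since Bcl2l11 lost its call. The causes were not tested. The number lower past 1.5-fold was 0 to 1 when a sample was left out, with Bcl2l11 the 1 without GSK replicate 2. In the other lists the test against 1.5 left 0 higher and 1 lower gene, Foxo3, and leaving out a sample gave 8 to 17 higher (8 without Veh replicate 1) and 10 to 16 lower genes. Of the 27 list genes that passed, 18 passed under every alternative except the test against 1.5.

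Samples that share a number deviated from their group means with correlations of -0.052, -0.081 and 0.16, so the samples were not treated as paired. Pairing in another order was not checked, and whether cultures shared a mouse is not known. With the replicate block, 4 members were higher and 2 lower, and 12 list genes were higher and 13 lower, with the calls of Xiap and Fadd lost (edgeR adjusted p = 0.068 and 0.057). Under RLE factors and the stricter filter no call of a named member or list gene changed, and no direction reversed under any alternative. The median log2 fold change of all genes stayed between -0.016 and -0.0017. With 3 samples per group, the tests of single genes rest in part on the spread estimated across all genes. Bad, the lowest member, had 194 to 292 counts per sample.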

Other observations

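Of 14 tested genes that overlap or lie next to the 10 genes, 5 passed the test (edgeR, adjusted p under 0.05), a share near the 32.1% of all genes tested, and 3 of them are described here. Itpr3, a calcium release channel gene next to Bak1, was measured at 169, 165 and 177 CPM in Veh and 143, 149 and 140 CPM in GSK (log2 fold change -0.24, edgeR adjusted p = 0.0017), while Bak1 was higher. Mical3, next to Bid, was measured at 9.63, 10.6 and 9.83 CPM in Veh and 15.6, 14.6 and 12.3 CPM in GSK (log2 fold change 0.50, edgeR adjusted p = 0.0054). Dhdh, near Bax, was measured at 7.07, 9.07 and 9.20 CPM in Veh and 6.25, 5.01 and 4.17 CPM in GSK (log2 fold change -0.72, edgeR adjusted p = 0.0070), while Bax was higher. The groups did not overlap for these 3 genes, as for 46.7% of all genes tested.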
